A study of Mus musculus with 24 samples.

Results

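The left-right difference in microRNA (miRNA) level of the mouse carotid intima was compared between 48 h and 12 h after partial ligation of the left carotid artery. For each miRNA, the change at a time is the log2 signal of the left artery (LCA) minus that of the right artery (RCA), and the quantity of interest is the change at 48 h minus the change at 12 h. All 24 of the 24 arrays entered, since the comparison needs left and right arteries at both times: 6 arrays each of left and right carotid endothelium at 48 h, and 6 each at 12 h. Every group came from male C57Bl6 mice of 6 to 8 weeks, all operated: on the left carotid, 3 of its 4 caudal branches had been tied and the superior thyroid artery spared, and ultrasound had shown low, oscillating flow. The right carotid of the operated mice served as control, and no sham-operated or unoperated mice were among the groups, so effects of flow, of surgery and of body side cannot be told apart. The intima was flushed out with Qiazol, which lyses the lining cells in place, and the RNA carried the dye Cy3 and was read on Illumina bead arrays with 655 miRNA probes. At 12 h, each artery's arrays 1 with 4, 2 with 5 and 3 with 6 had rank correlations of 0.986 to 0.998, against at most 0.874 for any other pair, and were averaged as repeat arrays of 1 sample. This left 18 samples, 6 per artery at 48 h and 3 per artery at 12 h. The labels do not say whether samples came from separate mice or pools, so p-values reflect no more than how these samples scatter, some of which may be technical.

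Partial ligation leaves low and oscillating flow in the left common carotid, and endothelium under such flow loses the quiescent state that steady laminar flow maintains. A miRNA is a short RNA cut from a hairpin precursor; it lowers the output of messenger RNAs that pair with its seed, the bases 2 to 8 counted from its 5′ end. The strand of the hairpin that is usually discarded carries an asterisk in the array's names. In such bulk samples, fewer cells of a type and less RNA per cell cannot be told apart.

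The sequences of the miRNAs on which the comparison turns are given as the array's target sequences, in DNA letters, with the seed in capitals. The first group holds those whose left mean lay above the right mean at 12 h by more than at 48 h, followed by miR-291a-5p, a paralog of miR-291b-5p from the same cluster.
miR-291b-5p: gATCAAAGtggaggccctctcc
miR-291a-5p: cATCAAAGtggaggccctctct
miR-872*: tGAACTATtgcagtagcctcct
miR-129-3p: aAGCCCTTaccccaaaaagcat
miR-190: tGATATGTttgatatattaggt
miR-212-5p: aCCTTGGCtctagactgcttact
The second group holds those with a gap at 48 h, with miR-615-5p, whose direction differed between the times, in first place.
miR-615-5p: gGGGGTCCccggtgctcggatc
miR-423-3p: aGCTCGGTctgaggcccctcagt
miR-330*: gCAAAGCAcagggcctgcagaga
miR-146b: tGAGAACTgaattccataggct
let-7d: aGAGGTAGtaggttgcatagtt
miR-327: aCTTGAGGggcatgaggat
The third group holds 3 of the 4 whose left and right samples lay apart in the same direction at both times (the other, miR-743a, is described with them), followed by miR-26b, which shares the seed of miR-26a.
miR-223: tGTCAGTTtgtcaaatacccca
miR-574-5p: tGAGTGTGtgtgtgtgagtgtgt
miR-26a: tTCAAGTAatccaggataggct
miR-26b: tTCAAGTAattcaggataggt
Of the 34 miRNAs named by rule, 25 matched a mature miRNA of RefSeq (mouse build GRCm38.p6) letter for letter, 23 of them at a single locus, and 17 of these lay inside another gene on either strand. The probe called miR-212-5p here bears only a sequencing (solexa) identifier on the array and has the sequence of miR-212-5p in RefSeq. The targets of miR-291b-5p and miR-291a-5p have 20 of 22 letters in common and the same seed.

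The labelled endothelium was checked first. Both strands of miR-126, a miRNA of endothelium, were detected (detection p under 0.05) on all arrays of the 4 groups. miR-143 and miR-145, abundant in smooth muscle, were likewise detected on every array, and the part of vessel wall cells in the results was not tested. Detected probes per array numbered 360 to 404 in left and 335 to 410 in right arteries at 48 h, and 397 to 431 in left and 364 to 400 in right arteries at 12 h. Median raw signals were 162 to 498 on the left and 119 to 500 on the right at 48 h, and 523 to 1030 on the left and 332 to 861 on the right at 12 h. Right sample 4 at 48 h stood apart for some abundant miRNAs, with log2 signals of 10.75 for let-7a, 5.74 for let-7f and 5.09 for miR-150, each the lowest of its group. Left sample 3 at 48 h did so for others, with 5.00 for miR-29a, 5.05 for miR-30c and 5.03 for let-7c. Without either of these samples the number of miRNAs past the threshold for the difference between times was 1, as with them.

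With both times in 1 limma fit, 1 miRNA of 474 tested (0.211%) passed the threshold for the difference between times. It was miR-291b-5p, whose change was lower at 48 h, when neither artery had detected signal. Tested alone, 12 of 407 miRNAs (2.95%) differed between the arteries at 48 h, 8 (1.97%) higher and 4 (0.983%) lower on the left, and 2 of 430 (0.465%) at 12 h, both higher on the left. No miRNA passed at both times. At an unadjusted p under 0.05 the numbers were 49 of 474 (10.3%) for the difference between times, 22 (4.64%) with a larger and 27 (5.7%) with a smaller change at 48 h. They were 72 of 407 (17.7%) at 48 h, 41 (10.1%) higher and 31 (7.62%) lower on the left, and 41 of 430 (9.53%) at 12 h, 24 (5.58%) higher and 17 (3.95%) lower. Of the 363 miRNAs tested at both times, 3 (0.826%) had an unadjusted p under 0.05 at each time in the same direction, and 0 in opposite directions (limma, with 0 adjusted p-values under the threshold at both times).

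The changes were larger and more variable at 48 h in these values. Each 12 h value is a mean of 2 repeat arrays and each 48 h value a single array, and each time was normalized alone. The part of these differences in the sizes and SDs below was not tested. Over the 363 miRNAs tested at both times, the median absolute log2 change was 0.53 at 48 h and 0.31 at 12 h, and the residual SD of a typical miRNA was 0.90 at 48 h and 0.40 at 12 h. A change of over 1 on the log2 scale, a factor of 2, was found for 107 at 48 h and for 70 at 12 h, with 33 in both counts, 22 of them with the same sign and 11 with opposite signs. The sign was the same at both times for 209 (57.6%) and opposite for 154. Across these 363 miRNAs, which share their libraries and are not independent replicates, Pearson's r between the 2 changes was 0.21 and Spearman's rho 0.15. Over the 220 miRNAs detected on all 24 arrays, 56.4% had the same sign and r was 0.05. Leaving out 1 sample gave between 51.2% and 58.4% with the same sign.

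**Figure D1:**
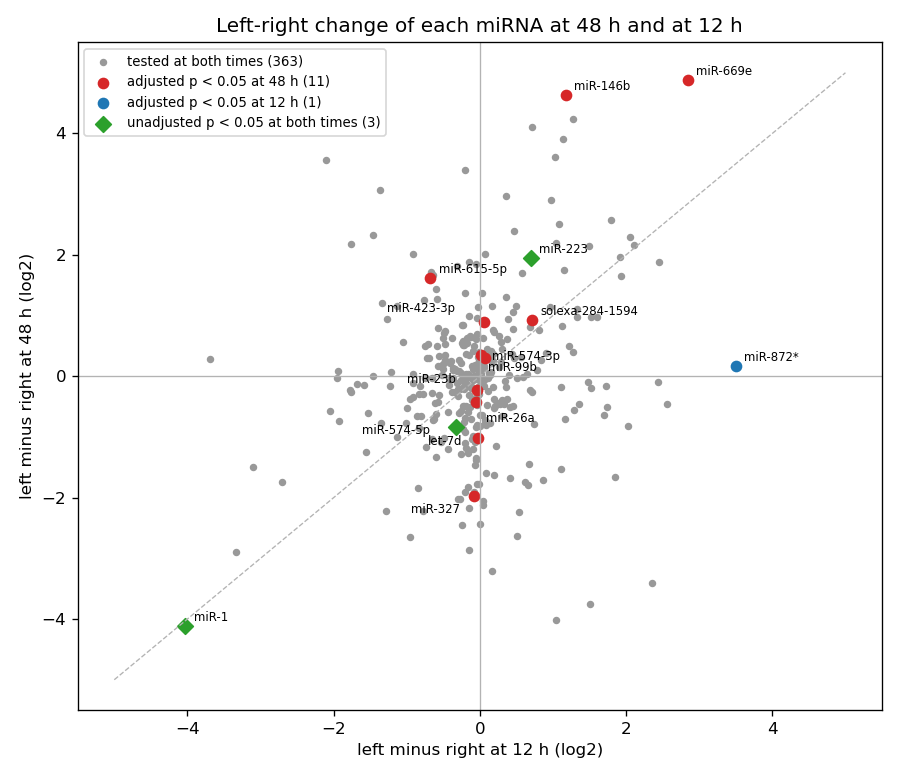
Left-right log2 change at 48 h (vertical axis) against that at 12 h (horizontal axis) for the 363 miRNAs tested at both times, 1 point each, with a dashed line at equal changes and green diamonds for the 3 with an unadjusted p under 0.05 at both times. Of the miRNAs past the threshold at 48 h (red), most sit near 0 on the 12 h axis, and miR-872* (blue), past the threshold at 12 h, sits at 0.17 on the 48 h axis.

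miR-291b-5p was detected on the left at 12 h only. It belongs to the miR-290 to miR-295 cluster, which is abundant in mouse embryonic stem cells, and maps to chromosome 7 from 3219494 to 3219515 on the plus strand (GRCm38.p6), within the coordinates of Nlrp12 and of the long noncoding gene D7Ertd143e. At 48 h its log2 signals ran from 5.54 through a median of 5.77 to 6.04 on the left and from 5.45 through 5.60 to 5.84 on the right, and it was detected on 0 of 6 left and 0 of 6 right arrays. At 12 h they were 11.25, 11.05 and 11.18 on the left, with 6 of 6 arrays detected, and 6.00, 6.02 and 6.17 on the right, with 0 of 6 detected. The left samples at 12 h thus stood clear of every other sample, while left and right overlapped at 48 h. In raw intensity the 12 h arrays read 2002 to 3232 on the left and 100 to 156 on the right. At 12 h the left level was at least 10.6-fold the right one (limma adjusted p = 0.00208), the bound being set against the lowest detected signal because the right arteries were undetected. The difference between times was -4.95 on the log2 scale (95% interval -5.53 to -4.37, adjusted p = 2.474e-09). It entered the test only through its detection on the left at 12 h, and its 3 remaining groups were undetected. This fitted size therefore depends on the background level and is no measured fold. The single variance of the fit came largely from undetected samples near background, so the interval and p do not measure the scatter of detected signal. With any 1 of the 18 samples left out the difference lay between -5.01 and -4.90 and passed each time. Most of these samples were undetected, so such fits add no further support.

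Among other members of the cluster, the paralog miR-291a-5p, which has the same seed, was undetected on all arrays of the 4 groups. miR-291b-3p, the other strand of the same hairpin, was detected on 0 left and 0 right arrays at 48 h and on 4 left and 2 right arrays at 12 h, and its difference between times was -1.21 (interval -3.01 to 0.60, adjusted p = 0.669), or -2.34 to -0.58 with 1 sample left out. miR-295 was detected at 12 h only, on all 6 left and all 6 right arrays, at 8.15, 8.32 and 8.83 on the left and 8.93, 9.21 and 9.84 on the right, the opposite order to miR-291b-5p. Of the cluster's 10 tested members, 7 had a difference above 0 and 3 below, with a median of 0.54, against 252 above and 222 below with a median of 0.07 over all 474.

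miR-872*, a passenger strand encoded on chromosome 4 (94665206 to 94665227, plus strand) within Ift74, a gene of transport in cilia, was the other miRNA past the threshold at 12 h. At 12 h its log2 signals were 9.94, 10.89 and 11.03 on the left and 6.79, 7.28 and 7.29 on the right, so the groups lay apart, and 6 left and 0 right arrays detected it. The left level was at least 7.32-fold the right one (adjusted p = 0.0497), a call that was lost in all 6 fits that dropped a single sample (adjusted p 0.0571 to 0.146). At 48 h all 6 left and all 6 right arrays detected it. The values then ran from 7.63 through 10.31 to 12.98 on the left and from 8.28 through 10.14 to 12.18 on the right, and the groups overlapped fully. The change was 0.17 at 48 h and 3.50 at 12 h. The difference of -3.33 had an interval from -6.91 to 0.25 and did not pass (adjusted p = 0.474), so a loss of the 12 h gap was not shown for miR-872*.

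**Figure D2:**
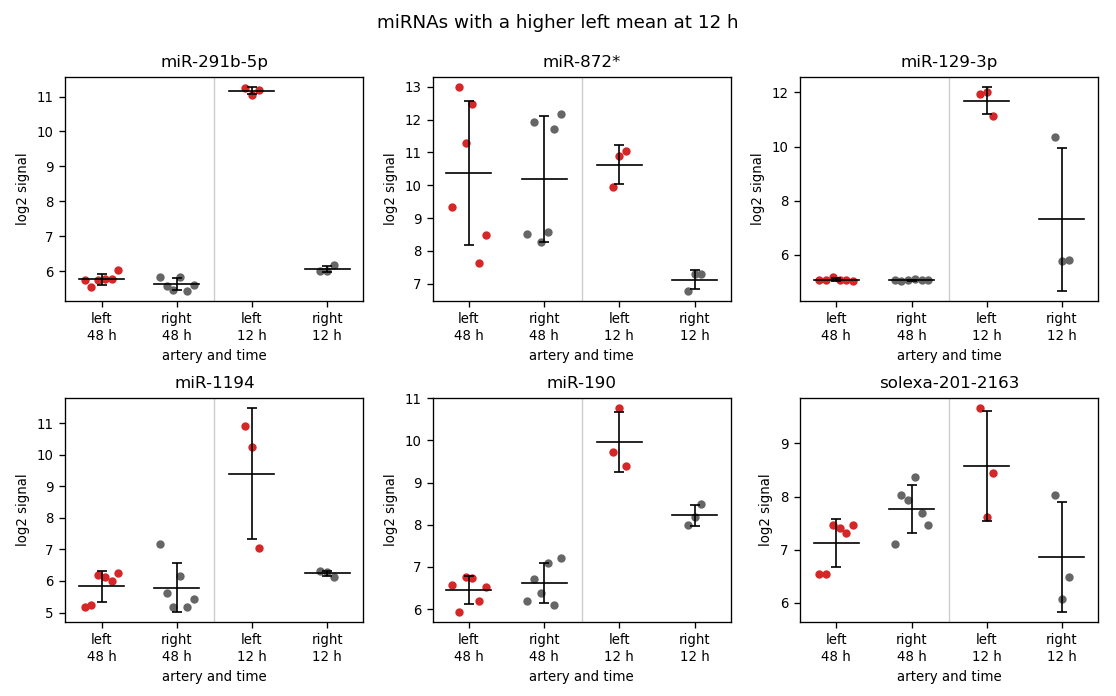
Normalized log2 signal of each sample (points) with group mean and SD (bars) for 6 miRNAs with a higher left mean at 12 h (the panel with a solexa identifier is the miR-212-5p probe), left beside right at 48 h and then at 12 h, n = 6 and 3 per artery. For miR-291b-5p the left samples at 12 h lie between 11.05 and 11.25 and all other samples at or below 6.17; miR-872* at 48 h spreads from 7.63 to 12.98.

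Further miRNAs followed the same pattern without passing the threshold. miR-129-3p, a strand of a neuronal miRNA located in the gene Mir670hg on chromosome 2, was undetected on every array at 48 h, at 5.04 to 5.17 on the left and 5.04 to 5.09 on the right. The 12 h samples read 11.95, 12.01 and 11.14 on the left and 10.36, 5.76 and 5.82 on the right. Right sample 1 thus stood near the left samples, but the groups did not overlap. The difference was -4.37 (interval -6.44 to -2.29, adjusted p = 0.0899). Over 18 fits that each left out 1 sample it ran from -5.89 to -3.59 (limma adjusted p up to 0.2145). Only the fit without right sample 1 at 12 h passed, at -5.89 (adjusted p = 2.784e-09). As for miR-291b-5p, the variance of that fit came largely from samples near background. Its p therefore does not measure the scatter of detected signal. miR-190, within the coordinates of Tln2, the gene of an integrin-binding protein, was detected on 3 left and 3 right arrays at 48 h and on all 12 at 12 h. At 48 h it ran from 5.94 through 6.55 to 6.76 on the left and from 6.09 through 6.54 to 7.21 on the right. Samples taken at 12 h read 9.73, 10.76 and 9.39 on the left against 8.00, 8.19 and 8.49 on the right, a gap of 1.73, and the difference was -1.89 (interval -2.95 to -0.83, adjusted p = 0.153). Left and right overlapped at 48 h and not at 12 h.

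miR-1194, detected on 0 left and 0 right arrays at 48 h and on 6 left and 0 right arrays at 12 h, was at least 3.15-fold higher on the left at 12 h (limma adjusted p = 0.373), with left samples at 10.92, 10.23 and 7.05 and right samples at 6.30, 6.28 and 6.13. Its difference was -3.13 (adjusted p = 0.176). With 1 sample left out it ran from -4.31 to -2.37 (limma adjusted p up to 0.459). It passed only without left sample 3 at 12 h, at -4.31 (adjusted p = 0.00156). miR-551b, within Egfem1, gave -1.48 (adjusted p = 0.176), or -1.93 to -1.12 with 1 sample left out (limma adjusted p up to 0.426). It passed only without left sample 2 at 12 h, at -1.93 (adjusted p = 0.00293). miR-539, of the imprinted Dlk1-Dio3 cluster, gave -1.82 (adjusted p = 0.294), or -2.77 to -1.34 with 1 sample left out (limma adjusted p up to 0.547). It passed only without left sample 1 at 12 h, at -2.77 (adjusted p = 8.067e-08). Both were undetected on all arrays at 48 h, and each of these calls appeared when the left 12 h sample farthest from the other 2 was left out. The fits of miR-1194, miR-551b and miR-539 drew their variance largely from undetected samples. Their p-values therefore do not measure the scatter of detected signal. miR-9, a neuronal and inflammatory miRNA, was detected on 2 left and 0 right arrays at 48 h and on 6 left and 0 right arrays at 12 h. It was at least 4.33-fold higher on the left at 12 h (adjusted p = 0.251), and its difference was -2.70 (interval -6.00 to 0.60). Its left samples at 12 h read 7.97, 11.93 and 9.68, and the bound was 2.11-fold without left sample 2 and 8.345-fold without left sample 1. For miR-1194 the bound ran from 1.86-fold without left sample 1 to 7.115-fold without left sample 3.

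The miR-212-5p probe (chromosome 11, 75173403 to 75173425, plus strand) read 6.55 through a median of 7.36 to 7.46 on the left and 7.11 through 7.81 to 8.37 on the right at 48 h. Its 12 h signals were 9.66, 7.61 and 8.45 on the left and 8.03, 6.08 and 6.49 on the right. The change was -0.64 at 48 h and 1.70 at 12 h, with overlap at each time, and the difference was -2.35 (interval -3.80 to -0.90, adjusted p = 0.176). With 1 sample left out the difference ran from -2.93 to -1.81 (limma adjusted p up to 0.459). It passed only without left sample 2 at 12 h (adjusted p = 0.0488). miR-132, cut from the neighbouring hairpin of the same cluster (75173723 to 75173744) and known to be induced in activated endothelium, had a change of -1.53 at 48 h and 1.10 at 12 h, a difference of -2.63 (interval -4.74 to -0.53, adjusted p = 0.333). The array's miR-212 probe had a difference of -0.35 (interval -1.19 to 0.49), which was 0.06 without left sample 1 at 12 h. None of the 3 passed.

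Some miRNAs had lower left values at 12 h and no such gap at 48 h. Both strands of miR-742, on the X chromosome, were among them. miR-742* ran from 12.08 through 12.80 to 13.19 on the left and from 11.63 through 12.28 to 13.24 on the right at 48 h. Its samples at 12 h read 5.65, 8.69 and 10.84 on the left and 11.85, 12.09 and 12.34 on the right. The difference was 3.99 (interval 1.76 to 6.21, adjusted p = 0.153), or 2.61 to 5.21 with 1 sample left out (limma adjusted p up to 0.354). It passed only without left sample 3 at 12 h, at 5.21 (adjusted p = 0.00192). The 3 left samples at 12 h thus disagreed widely among themselves, yet all lay below the right ones. The other strand, miR-742, was undetected at 48 h, with a change of -1.07 at 12 h and a difference of 0.95 (adjusted p = 0.283). miR-302a, of a stem cell family, was detected on 1 left and 4 right arrays at 12 h and on none at 48 h, and its difference was 0.82 (adjusted p = 0.294).

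Of the 49 miRNAs with an unadjusted p under 0.05 for the difference, 13 (26.5%) were detected on no array at 48 h, against 24 of all 474 tested (5.06%). The 49 were 23 with an unadjusted p under 0.05 at 48 h alone, 11 at 12 h alone and 15 at neither time. In 37 of them the 2 changes had opposite signs, against 154 of the 363 tested at both times, a narrower set. Choosing miRNAs by a large difference itself favours opposite signs. For those undetected at 48 h, the sign at 48 h is that of undetected signal, so the 37 are a description. The part of the detection difference at 48 h in the count of 49 was not tested. Restricted to the 363 miRNAs tested at both times, a set chosen after the data were seen, 0 passed and 29 had an unadjusted p under 0.05 (limma); miR-291b-5p is not in that set.

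The 12 miRNAs past the threshold at 48 h were those for which the change was larger late. All 12 had a larger absolute change at 48 h than at 12 h, 10 with the same sign at both times, and 0 had an unadjusted p under 0.05 at 12 h. For 7 of the 12 the unadjusted p of the difference was under 0.05 (background 10.3%). The adjusted p ran from 0.0899 to 0.972, so a late appearance was not shown for any of them by the test of the difference itself. Since the 12 were chosen on the 48 h samples, which also enter the difference, these counts are a description.

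miR-423-3p, an abundant miRNA from Nsrp1 on chromosome 11 (77078086 to 77078108, minus strand), rose on the left at 48 h. It ran from 13.55 through 13.66 to 13.98 on the left and from 12.44 through 12.77 to 13.42 on the right at 48 h. The values of 12 h were 11.84, 12.03 and 11.92 on the left against 12.15, 11.82 and 11.65 on the right. The groups lay apart at 48 h and overlapped at 12 h. The change was 0.89 at 48 h (adjusted p = 0.0197) and 0.06 at 12 h, and the difference of 0.83 (interval 0.25 to 1.41) did not pass (adjusted p = 0.2895). The 48 h call ended without left sample 5 at 48 h (adjusted p = 0.0511).

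miR-330*, within Eml2 on chromosome 7 (19181525 to 19181547, plus strand), was detected on 6 left and 2 right arrays at 48 h and on 2 left and 2 right arrays at 12 h. At 48 h it ran from 11.25 through 12.06 to 12.72 on the left and from 5.39 through 5.88 to 10.78 on the right, without overlap. Log2 signals at 12 h were 6.49, 6.61 and 9.75 on the left and 9.36, 7.05 and 7.32 on the right. It rose at 48 h (log2 change 4.70, adjusted p = 0.0277), and the difference was 4.99 (interval 1.38 to 8.61, adjusted p = 0.294). miR-146b, of a family that damps innate immune signalling, also rose at 48 h, with 5 left and 1 right arrays detected. Its 48 h values ran from 5.72 through 11.66 to 12.36 on the left and from 5.78 through 6.03 to 6.83 on the right, with left sample 1 below all right samples and the other 5 above them. The 12 h samples read 9.40, 10.08 and 6.26 on the left and 9.23, 6.51 and 6.46 on the right. The change was 4.63 at 48 h and 1.18 at 12 h, and the difference of 3.45 had an interval from -0.20 to 7.10 (adjusted p = 0.474). miR-146a, which shares its seed, had a difference of -0.17 (interval -3.69 to 3.35), or -0.87 to 0.42 with 1 sample left out.

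miR-669e, of the miRNA block in an intron of Sfmbt2, was detected on 6 left and 1 right arrays at 48 h and on 4 left and 0 right arrays at 12 h. Its change was 4.88 at 48 h (adjusted p = 0.0315) and 2.85 at 12 h, when the left level was at least 2.44-fold the right one (adjusted p = 0.497) and the groups lay apart. Its left samples at 12 h read 11.71, 8.93 and 6.46, and without left sample 1 no bound is left and the 12 h change is 1.51. The difference of 2.04 (interval -1.998 to 6.07) did not pass (adjusted p = 0.722), and was 0.75 to 3.38 with 1 sample left out. miR-99b, of a family that restrains mTOR signalling, rose by 0.36 at 48 h and stood at 0.02 at 12 h, a difference of 0.34 (interval -0.07 to 0.75). miR-574-3p rose by 0.30 at 48 h and stood at 0.07 at 12 h, a difference of 0.23 (interval -0.22 to 0.68) that was 0.05 to 0.47 with 1 sample left out. A sequencing-derived probe with a target of 26 letters rose by 0.92 at 48 h and stood at 0.71 at 12 h, where it was detected on 4 left and 4 right arrays. Its difference of 0.21 had an interval from -2.73 to 3.15.

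let-7d, whose family acts against cell proliferation, fell on the left at 48 h. It ran from 12.46 through 12.98 to 13.62 on the left and from 13.47 through 14.03 to 14.38 on the right at 48 h. Samples taken at 12 h read 14.33, 14.35 and 14.37 on the left and 14.37, 14.37 and 14.38 on the right. The groups overlapped at both times, at 48 h through right sample 4, the lowest of the right samples at 13.47. The change was -1.02 at 48 h (adjusted p = 0.0227) and -0.02 at 12 h, and the difference was -0.998 (interval -1.61 to -0.38, adjusted p = 0.176). Under quantile normalization, equal ranks receive equal values; the small spread of such bright miRNAs at 12 h is no measure of stability.

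miR-327 gave the largest fall of the 4 at 48 h. It ran from 6.12 through 7.35 to 8.40 on the left and from 8.59 through 9.36 to 10.11 on the right at 48 h, without overlap. Its 12 h signals were 10.89, 10.60 and 10.62 on the left and 10.74, 10.71 and 10.88 on the right. The change was -1.98 at 48 h (adjusted p = 0.0252) and -0.07 at 12 h, with a difference of -1.90 (interval -3.22 to -0.59, adjusted p = 0.2895). miR-23b, a miRNA induced by laminar flow in cultured endothelium, fell by 0.22 on the log2 scale at 48 h and stood at -0.03 at 12 h. Its difference was -0.19 (interval -0.36 to -0.02, adjusted p = 0.425). All 12 of the calls at 48 h ended without left sample 5 at 48 h, when 0 of 407 passed and 66 had an unadjusted p under 0.05 (limma). The number passing was 6 when left sample 4 was dropped and 4 when either right sample 2 or right sample 6 was. Over the 12 fits that left out 1 sample, the call of miR-99b held in 2 and those of miR-669e and miR-23b in 3. That of miR-423-3p held in 11. Under 75th percentile scaling miR-327, miR-26a, miR-23b, miR-574-3p and miR-99b no longer passed at 48 h (adjusted p 0.0601 to 0.708).

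**Figure D3:**
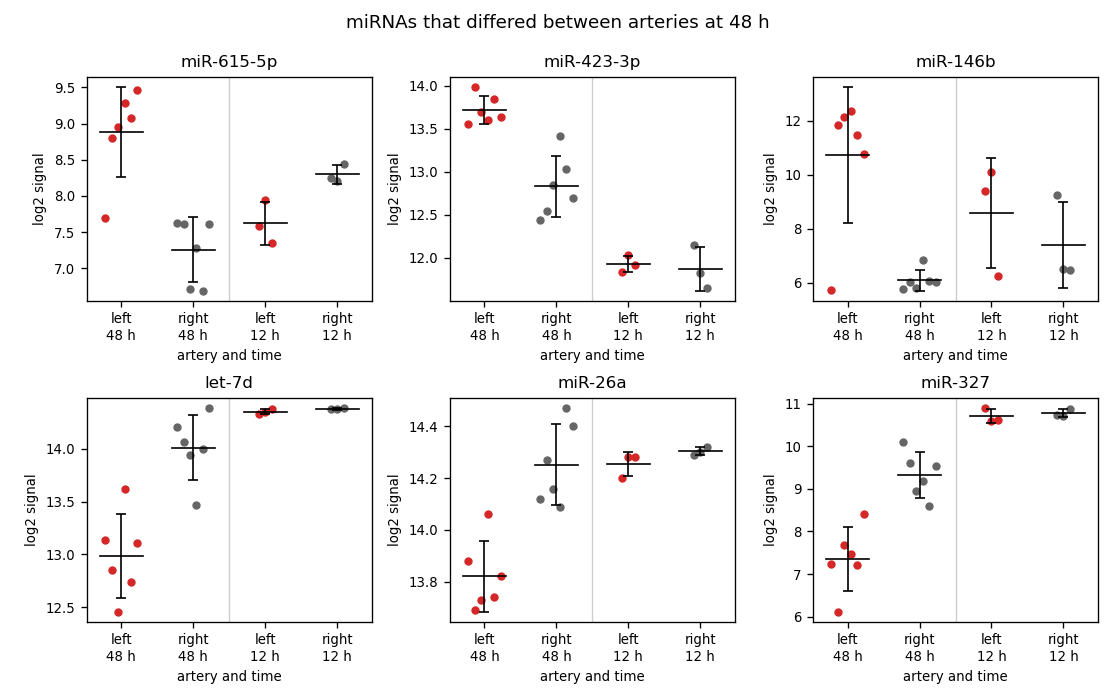
Normalized log2 signal of each sample (points) with group mean and SD (bars) for 6 miRNAs past the threshold at 48 h, left beside right at 48 h and then at 12 h, n = 6 and 3 per artery. miR-615-5p is the panel whose left samples lie above the right ones at 48 h and below them at 12 h; for let-7d, miR-26a and miR-327 the left samples at 48 h form the lowest group.

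miR-615-5p was the miRNA whose left and right samples lay apart at both times in opposite directions, 1 of 363 (0.275%). It lies within Hoxc5, a homeobox gene of body position, on chromosome 15 (103014926 to 103014947, plus strand). At 48 h it ran from 7.70 through 9.01 to 9.46 on the left and from 6.69 through 7.44 to 7.63 on the right. Its samples at 12 h read 7.58, 7.94 and 7.35 on the left and 8.25, 8.20 and 8.44 on the right. It rose on the left at 48 h (log2 change 1.62, adjusted p = 0.0277), while the change of -0.68 at 12 h had an unadjusted p of 0.124. The difference of 2.30 (interval 1.16 to 3.43) had the smallest p of the 474 after miR-291b-5p and miR-129-3p, and did not pass (adjusted p = 0.0899). It passed when weights gave each time its own variance (adjusted p = 0.0460) and did not with an unpooled standard error (adjusted p = 0.1504). The 48 h call held in 6 of 12 fits that left out 1 sample (adjusted p 0.01105 to 0.0664). Dropping left sample 1 at 48 h gave a difference of 2.53 (adjusted p = 0.0112), and dropping left sample 2 at 12 h gave 2.46 (adjusted p = 0.0488). These were the 2 of 18 such fits that passed, and over all 18 the difference ran from 2.16 to 2.53 (limma adjusted p up to 0.2145). Left sample 1 at 48 h, at 7.70, was the left sample nearest to the right ones.

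miR-324-3p, miR-697, miR-693-5p and miR-328 also had a change above 0 at 48 h and below 0 at 12 h, like miR-330* and miR-742* above. miR-324-3p, within Acadvl, ran from 13.17 through 13.71 to 13.79 on the left and from 12.28 through 12.76 to 13.35 on the right at 48 h. The values of 12 h were 11.66, 12.35 and 10.96 on the left and 12.02, 12.52 and 12.15 on the right. The change was 0.79 at 48 h (adjusted p = 0.0511) and -0.57 at 12 h, with overlap each time, and the difference was 1.36 (interval 0.51 to 2.21, adjusted p = 0.176). With 1 sample left out it ran from 1.01 to 1.71 (limma adjusted p up to 0.431). It passed only without left sample 2 at 12 h, at 1.71 (adjusted p = 0.0283). miR-697, within Sf3a3, was detected on 6 left and 0 right arrays at 48 h and on all 12 arrays at 12 h, with a change of 1.67 at 48 h, -0.64 at 12 h and a difference of 2.31 (interval 0.46 to 4.16, adjusted p = 0.333). At 48 h its left level was at least 1.84-fold the right one (adjusted p = 0.137), or at least 1.24-fold without left sample 6. miR-693-5p, within the exportin gene Xpo5, changed by 0.54 at 48 h and -0.71 at 12 h, a difference of 1.25, and miR-328 by 0.09 at 48 h and -0.29 at 12 h, a difference of 0.38 (adjusted p = 0.333 for both), so in both the change was smaller in size at 48 h. The difference largest in size of all 474 was that of miR-669a, chosen after its values were seen, with changes of -3.40 at 48 h and 2.36 at 12 h. It was detected on 2 left and 6 right arrays at 48 h and on 6 left and 2 right arrays at 12 h, and its difference of -5.76 had an interval from -10.41 to -1.11 (adjusted p = 0.333).

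Left and right samples lay apart in 19 of 407 miRNAs at 48 h (4.67%) and in 82 of 430 at 12 h (19.1%). With 6 samples per artery at 48 h and 3 at 12 h, groups lie apart more readily at 12 h whatever the miRNA, so these shares are not comparable. Among the 363 tested at both times they did so in 18 (4.96%) at 48 h and in 65 (17.9%) at 12 h. They lay apart in the same direction at both times in 4 of 363 (1.1%), namely miR-223, miR-574-5p, miR-26a and miR-743a. None of the 4 passed at 12 h, and miR-26a alone passed at 48 h. For the 4 the difference between times did not pass either, and a p above the threshold does not show that the changes were equal.

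miR-223, a myeloid miRNA abundant in neutrophils, monocytes and platelets, had higher values on the left at both times. At 48 h it ran from 13.94 through 14.56 to 14.67 on the left and from 9.66 through 13.36 to 13.51 on the right. Log2 signals at 12 h were 13.17, 13.31 and 12.88 on the left and 12.00, 12.48 and 12.78 on the right. The change was 1.95 at 48 h (adjusted p = 0.107) and 0.70 at 12 h (adjusted p = 0.373), and the difference of 1.25 had an interval from -0.69 to 3.18. Leaving out 1 sample gave differences of 0.68 to 1.46. The leukocyte list of miR-223, miR-142-3p, miR-142-5p and miR-150 had summed signals of 19362 to 28580 on the left and 3454 to 18382 on the right at 48 h, and 16657 to 18390 on the left and 13599 to 19939 on the right at 12 h. On the left at 48 h miR-150 ran from 10.80 to 12.02, well below miR-223, so the left sums at 48 h mostly restate miR-223. At 12 h miR-150 read 12.65, 12.90 and 13.34 on the left and 13.16, 12.79 and 13.59 on the right. Both miRNAs thus weigh in the 12 h sums. In right sample 6 at 48 h miR-150 exceeded miR-223, at 12.54 against 9.66. At 48 h 3 of the list's 3 tested members had changes above 0, and at 12 h 2 of 4. Without right sample 4 at 48 h it was 2 of 3, as the 48 h change of miR-150 turned to -0.66 in place of 0.51 and its difference to -0.44 in place of 0.73. The part of leukocytes in other results was not tested.

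miR-574-5p had lower values on the left at both times. It lies on chromosome 5 (64970328 to 64970350, plus strand) where Fam114a1 and Tlr6 overlap. At 48 h it ran from 10.51 through 12.29 to 12.46 on the left and from 12.75 through 12.80 to 13.00 on the right. The 12 h samples read 13.35, 13.34 and 13.39 on the left and 13.64, 13.64 and 13.79 on the right. The change was -0.84 at 48 h (adjusted p = 0.158) and -0.33 at 12 h (adjusted p = 0.201), and the difference was -0.51 (interval -1.46 to 0.44). Without left sample 2 at 48 h, the lowest, the 48 h change was -0.55 and the difference -0.21. The opposite strand of the same hairpin, miR-574-3p, rose on the left at 48 h as given above.

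miR-26a, known to lower BMP and SMAD signalling in endothelium, fell on the left at 48 h. It ran from 13.69 through 13.78 to 14.06 on the left and from 14.09 through 14.21 to 14.47 on the right at 48 h. Samples taken at 12 h read 14.20, 14.28 and 14.28 on the left and 14.29, 14.30 and 14.32 on the right, a gap that is apart but small. The change was -0.43 at 48 h (adjusted p = 0.0240) and -0.05 at 12 h, and the difference was -0.38 (interval -0.65 to -0.10, adjusted p = 0.294). miR-26b, with the same seed, had a change of -1.77 at 48 h and -0.04 at 12 h, and its difference of -1.73 had an interval from -4.38 to 0.92. Without left sample 3 at 48 h, which read 7.14, the 48 h change was -0.90 and the difference -0.86.

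miR-743a was undetected on all 6 left arrays at 48 h and detected on 5 right ones, and was detected on all 12 arrays at 12 h. Its 48 h values ran from 5.14 through a median of 5.32 to 5.92 on the left and from 6.62 through 7.25 to 11.77 on the right, at least 2.80-fold lower on the left, or at least 1.67-fold without right sample 1, the highest. Its 12 h signals were 8.33, 8.03 and 7.80 on the left and 8.55, 8.87 and 9.62 on the right. The change was -2.64 at 48 h (adjusted p = 0.0892) and -0.96 at 12 h (adjusted p = 0.497), with a difference of -1.68 (interval -4.07 to 0.71), or -0.93 without right sample 1 at 48 h.

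miR-1, which defines striated muscle, had changes of nearly the same size, -4.12 at 48 h and -4.03 at 12 h, with unadjusted p-values of 0.0199 and 0.0138. It was detected on 1 left and 4 right arrays at 48 h and on 2 left and 6 right arrays at 12 h. At 48 h it ran from 5.01 through 5.01 to 8.82 on the left and from 5.01 through 11.28 to 13.27 on the right, with overlap. Its samples at 12 h read 8.83, 5.70 and 5.68 on the left and 9.15, 11.07 and 12.08 on the right, without overlap. The difference was -0.09, but its interval ran from -5.28 to 5.10, so it is not shown to have persisted at equal size. The striated muscle list of 7 had summed signals of 2128 to 12432 on the left and 2079 to 24821 on the right at 48 h, and 3966 to 7842 on the left and 6807 to 8254 on the right at 12 h. Of that list miR-133a leaned the other way at 12 h, at 1.11, and stood at -0.17 at 48 h (-0.45 to 0.15 with 1 sample left out). The part of muscle RNA in other results was not tested.

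**Figure D4:**
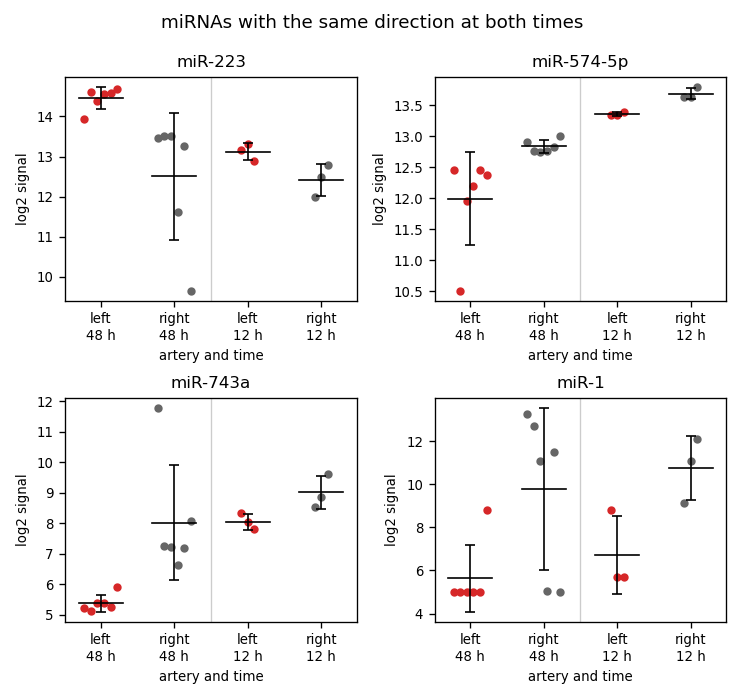
Normalized log2 signal of each sample (points) with group mean and SD (bars) for 4 miRNAs with the same direction at both times, left beside right at 48 h and then at 12 h, n = 6 and 3 per artery. miR-223 lies higher on the left at each time, miR-574-5p and miR-743a lie lower, and miR-1 overlaps at 48 h, where values of 5.01 occur in both arteries.

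A change that did not differ between times can be read as bounded only where the interval is narrow. The 95% interval of the difference lay within 1 log2 unit of 0 on both sides for 41 of 474 miRNAs (8.65%), 40 of them among the 220 detected on all 24 arrays, and the median half-width of the interval was 1.98. Among bright miRNAs the narrowest intervals were those of miR-24 (0.04, interval -0.06 to 0.14), miR-27a (0.03, interval -0.10 to 0.16), miR-23b, miR-21 (0.16, interval -0.05 to 0.37) and a sequencing-derived probe (0.12, interval -0.08 to 0.32). The interval of miR-23b, given above, is narrow but lies wholly below 0. miR-24, miR-27a and miR-23b come from the miR-23/27/24 clusters of endothelium and smooth muscle, and miR-21 is induced by growth and inflammation in many cells. The restriction on quantile-normalized bright probes given above holds for them too.

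**Figure D5:**
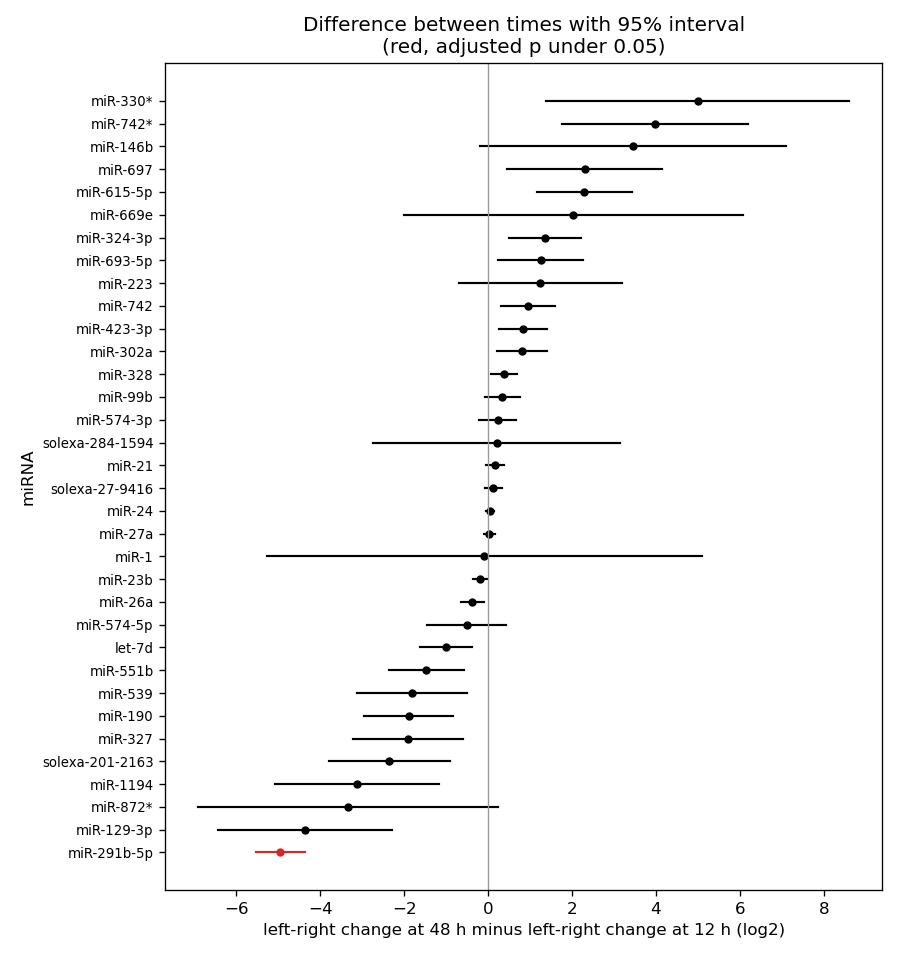
Change at 48 h minus change at 12 h (horizontal axis, log2) with its 95% interval for the 34 miRNAs named by rule, sorted by size. miR-291b-5p (red, -4.95) is past the adjusted threshold; miR-872*, miR-1, miR-669e and miR-146b have intervals that include 0 and span several log2 units.

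Families and marker lists were described by counts beside all tested miRNAs, of which 222 of 474 had a difference below 0. A change below 0 was found for 204 of 407 at 48 h and for 239 of 430 at 12 h. None of their members passed for the difference other than miR-291b-5p. In the let-7 family 7 of 9 differences were below 0 with a median of -0.85. Its median change was -0.77 at 48 h and -0.03 at 12 h, where 8 of 9 lay below 0, but 8 of 9 above 0 under scaling to the 75th percentile. In the miR-29 family 3 of 3 were below 0 (median -1.33), in the miR-30 family 4 of 5 (median -0.38), in the miR-15/16 family 4 of 5 (median -1.04) and in the miR-26 family 2 of 2 (median -1.05). Without left sample 3 at 48 h, the lowest of its group for let-7c, miR-29a, miR-30c and miR-26b, the medians were -0.37 for let-7, -0.66 for miR-29, -0.28 for miR-30, -0.99 for miR-15/16 and -0.61 for miR-26. The difference of miR-29a then turned to 0.20 in place of -1.09, which left 2 of 3 of its family below 0. Without right sample 4 at 48 h all 9 of the let-7 differences were below 0 (median -0.99). The miR-17-92 and related clusters had 4 of 11 below 0 (median 0.27), the miR-23/27/24 clusters 3 of 6 (median -0.00), the Dlk1-Dio3 cluster 16 of 28 (median -0.18), the Sfmbt2 families 17 of 29 (median -0.17), the passenger strands 30 of 73 (median 0.25) and the sequencing-derived probes 14 of 32 (median 0.17). With 1 sample left out in turn the medians of the miR-23/27/24 clusters, the Sfmbt2 families and the sequencing-derived probes took both signs.

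Of miRNAs published as raised by laminar flow, 11 of 16 had a difference below 0 (median -0.24), with changes below 0 in 12 of 14 at 48 h and 12 of 16 at 12 h. At 12 h this became 6 of 16 below 0 under scaling to the 75th percentile. Without that scaling, 204 of all 407 tested miRNAs had a change below 0 at 48 h and 239 of 430 at 12 h. The laminar flow list shares members with other lists described here, so it is not a separate set. Among miRNAs that disturbed or low flow is published to raise, 2 of 6 were below 0 (median 0.19), and of the inflammatory list 5 of 9 (median -0.17, or -0.60 to 0.19 with 1 sample left out). miR-210, the hypoxia miRNA, stood at 0.66 at 48 h and -0.13 at 12 h, a difference of 0.79 (interval 0.02 to 1.56, adjusted p = 0.439). The set remembered as raised in the study's own publication had 4 of 4 differences above 0 (median 2.67), among them miR-712, which maps to pre-ribosomal RNA, at 3.39 (interval -1.60 to 8.38; 2.14 to 5.41 with 1 sample left out), and the lowered set had 5 of 5 below 0 (median -1.73). Both sets were chosen on these 48 h samples and are not independent evidence of direction.

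Among the marker lists, endothelial miR-126-3p had a difference of 1.91 (interval -0.81 to 4.62) and miR-126-5p one of -0.64 (interval -2.25 to 0.98). Their summed signal was 7042 to 22826 on the left and 3523 to 28765 on the right at 48 h, and 43598 to 45355 on the left and 44834 to 45509 on the right at 12 h. For smooth muscle, 1 of 2 differences was below 0 (median -0.11), for striated muscle 3 of 6 (median 0.27), for erythroid cells 2 of 2 (median -1.22), for leukocytes 1 of 4 (median 0.69), for fibroblasts 0 of 2 (median 0.38), for epithelium 2 of 3 (median -0.07) and for neurons 2 of 3 (median -0.15). With 1 sample left out these counts moved by at most 1, and the medians of striated muscle, epithelium and neurons took both signs. The epithelial miR-200c, detected on 6 left and 2 right arrays at 48 h and on none at 12 h, had a difference of 4.56 (interval 0.67 to 8.46, adjusted p = 0.384). The liver miRNA miR-122 was not tested. Erythroid sums were 22455 to 37501 on the left and 25618 to 43287 on the right at 48 h, without separation of the arteries, and 4770 to 4999 on the left and 1598 to 7050 on the right at 12 h. Under 75th percentile scaling the median change of all miRNAs became 0.32 in place of -0.00 at 48 h and 0.11 in place of -0.05 at 12 h, and the median difference 0.06 in place of 0.07.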

How the data were processed

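For each time point 1 deposited table gave every probe's mean signal intensity without normalization, and its detection p-value, per the file headers; the submitters' processing notes name GenomeStudio 2010.2. Background subtraction before deposit is not stated in those sources. The authors' deposited processed intensity values were used as an alternative and to tie each table to its time point. The files name no slide or scan, so table and time point cannot be told apart; every left-right change was taken inside 1 table.

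In R 4.3.3, neqc of limma 3.58.1 was run on each time point alone: background from the detection p-values, offset 16, quantile normalization, log2. Probes entered a test when detected (p under 0.05) on 3 or more arrays of any group in it. Repeat arrays at 12 h were averaged on the log2 scale. Tests used lmFit and eBayes with a trend (two-sided; Benjamini-Hochberg over all tested probes; threshold 0.05). Changes at each time were fitted from that time's samples, and the difference between times over all 18 samples with a single variance per miRNA. The fits were run on simulated data in which changes were planted in left samples at 48 h only. A change at 12 h alone, as for miR-291b-5p, was not simulated. For a bound on a fold, an undetected probe was raised on each array to the lowest detected signal there, unless its own was higher, before groups were averaged. The number of arrays limits precision.

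Named miRNAs were those past the threshold for the difference, filled to 10 positive and 10 negative by smallest p, those past it at 12 h or at 48 h, those with an unadjusted p under 0.05 at both times, list members, and the 5 with the narrowest interval among those above the median mean signal. miR-743a, miR-669a, miR-132, miR-212 and those named for where they were detected were chosen after their values were seen. The members, the rule and the 27 lists were chosen with earlier results of these data known. The lists came from general knowledge and were not tested as sets. Alternatives changed the normalization, offset, filter, averaging, variance model, replicate block and samples used.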

Additional observations from a re-analysis of the deposited data

Results flagged for a closer look

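miR-291b-5p passed the test of the difference between 48 h and 12 h, at -4.95 on the log2 scale. It was detected on the left at 12 h only, so its change at 48 h compares undetected signal. The size of -4.95 depends on the background level, as given above. Among the named miRNAs, 60 groups of 6 samples at 48 h were examined for a sample far from the other 5, and 11 held one, by Dixon's test at the 95% level. Chance gives about 1 in 20 where groups are independent and normally spread. These groups share their samples, and some mix detected with undetected signal, so that rate is no reference for the 11. On the left, sample 1 was far below the others for miR-615-5p (7.70), miR-324-3p (13.17) and miR-146b (5.72). Sample 2 was far below for miR-574-5p (10.51), and sample 3 above for miR-129-3p (5.17), where no array detected it. Sample 6 was far above for miR-697 (10.43) and miR-1 (8.82). On the right, sample 1 was far below for miR-328 (14.02) and sample 4 for miR-23b (14.43), while sample 4 was far above for miR-146b (6.83) and sample 5 for miR-669e (9.31).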

How the results depend on the processing

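The count of 1 for the difference between times became 2 under scaling to the 75th percentile, 6 with no detection filter, 3 when detection on all arrays of a group was required, 17 when every array counted as a sample, 2 with a variance for each time, and 0 with the authors' processed values (33 unadjusted, limma; miR-291b-5p is blank there at 48 h), with an unpooled standard error (41 unadjusted) or over miRNAs tested at both times (29 unadjusted). Both the unpooled standard error and that restriction covered only the 363 miRNAs tested at both times. miR-291b-5p is not among them, so neither setting could call it. Leaving out 1 sample gave a count of 1 to 9: 4, 9 and 4 without left samples 1, 2 and 3 at 12 h, and 2 without right sample 1 at 12 h or left sample 1 at 48 h. The count of 2 at 12 h became 1 without background correction, with all arrays normalized together, with an offset of 50, with no filter and with processed values, 72 with every array a sample, and 8 in the fit over all samples, with 1 to 2 on leaving out 1 sample. The count of 12 at 48 h became 25 with no filter and 6 without right arrays 1, 2 and 4, with 0 to 15 on leaving out 1 sample. The 3 miRNAs with an unadjusted p under 0.05 at both times in the same direction became 6 (75th percentile), 7 (no filter), 15 (every array), and 5 (without those right arrays), with 3 to 7 on leaving out 1 sample; the 0 in opposite directions became 2, 4, 6 and 1 under these 4 settings and 1 with detection on all arrays, with 0 to 2 on leaving out 1 sample. The deviations of same-numbered left and right samples correlated at 0.025 to 0.06 at 12 h, against at most 0.011 for other numbers. At 48 h they correlated at -0.175 to 0.024, against up to 0.334 for other numbers. The labels do not say whether the numbers pair the samples, and these low values do not settle it. With the replicate number as a block the counts were 1 for the difference (43 unadjusted), 0 at 12 h (45 unadjusted), 0 at 48 h (66 unadjusted, limma) and 6 in the same direction. For single named miRNAs 1344 values kept direction and side of the threshold, 99 lost a call, 32 gained one and 16 changed sign. The sign changes were those of miR-1 (0.35 with all arrays together, 0.48 without right arrays 1, 2 and 4, and -1.04 to 0.96 on leaving out 1 sample) and the sequencing-derived probe of 26 letters (-1.52 to 1.51 on leaving out 1 sample). The cause was not tested. Signal near background limits the size of changes in undetected groups.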
